A study of Homo sapiens with 10 samples.

Results

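MX1, MX2, IFI44, IFI44L, RSAD2 and CMPK2 are interferon-stimulated genes that lie as 3 pairs of chromosomal neighbours, and were taken by gene name. All 6 were listed in every table, among 36545 genes in the interferon-β (IFN-β) experiment and 22609 genes in the knockdown experiment. Total RNA had been sequenced from KYSE30, KYSE180 and KYSE450, established lines of human esophageal squamous cell carcinoma (ESCC). In the first experiment the 3 lines received IFN-β at 1000 IU/ml for 72 h, against cells given saline buffer and labelled untreated. In the second, KYSE30 and KYSE180 were infected with lentivirus to knock down IRF1-AS, a non-coding transcript from the strand opposite IRF1, against cells with a vector control. No group of the second experiment was labelled as given IFN-β. Each line contributed 1 library to each arm, so the line is the replicate, 10 libraries in all, and p-values refer to the spread between lines. How many knockdown constructs or clones were used is not stated.

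Type I interferon binds the IFNAR receptor, whose Janus kinases act on the transcription factor complex ISGF3, which includes IRF9 and binds the interferon-stimulated response element (ISRE) in the promoters of its target genes. MX1 and MX2 encode dynamin-like GTPases that block incoming viruses, MX1 mainly influenza and other RNA viruses in the cytoplasm and MX2 mainly HIV-1 and herpesviruses at the nuclear pore. RSAD2 encodes viperin, a radical SAM iron-sulfur enzyme that converts CTP to the chain terminator ddhCTP. CMPK2, transcribed away from RSAD2, encodes a mitochondrial UMP-CMP kinase. IFI44 and IFI44L are related proteins with less settled functions, and both have been described to bind the immunophilin FKBP5.

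On hg38 with GENCODE 29, MX2 (ENSG00000183486) spans chr21:41361943-41409390 and MX1 (ENSG00000157601) spans chr21:41420304-41459214, both on the plus strand and 10913 bases apart. IFI44L (ENSG00000137959) spans chr1:78619922-78646145 and IFI44 (ENSG00000137965) spans chr1:78649796-78664078, also on the plus strand, with 3650 bases between them. CMPK2 (ENSG00000134326) is on the minus strand at chr2:6840570-6866635 and RSAD2 (ENSG00000134321) is on the plus strand at chr2:6865806-6898239. Their annotated spans overlap by 830 bases at the 5′ ends. The strand setting of the counting is not given, so reads in that overlap cannot be told apart between RSAD2 and CMPK2.

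Promoters were read from RefSeq windows on GRCh38.p14 that run from 250 bases before to 50 after an annotated start. Of the 6 genes, 5 had at least 1 window (11 windows in all), and MX2 had none. The sequences are shown because the ISRE is the ISGF3 site and its letters can be seen in them. The core searched was GAAANNGAAA on either strand, which reads TTTCNNTTTC on the opposite strand. In the first 4 sequences, each in the gene's 5′ to 3′ direction, capitals mark that core.
IFI44L, chr1:78620198-78620497, plus strand: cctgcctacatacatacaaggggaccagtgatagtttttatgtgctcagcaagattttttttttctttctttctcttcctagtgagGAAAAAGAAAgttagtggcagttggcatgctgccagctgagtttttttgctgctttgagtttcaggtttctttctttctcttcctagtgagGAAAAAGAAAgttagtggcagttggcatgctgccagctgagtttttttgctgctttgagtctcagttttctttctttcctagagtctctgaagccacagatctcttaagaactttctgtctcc
IFI44, chr1:78649539-78649838, plus strand: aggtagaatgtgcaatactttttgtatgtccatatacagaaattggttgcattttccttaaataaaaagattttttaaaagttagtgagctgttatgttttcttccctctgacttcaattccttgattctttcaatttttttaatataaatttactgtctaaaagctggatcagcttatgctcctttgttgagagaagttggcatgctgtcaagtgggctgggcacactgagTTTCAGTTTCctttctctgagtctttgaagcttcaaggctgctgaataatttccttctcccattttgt
MX1, chr21:41420308-41420607, plus strand: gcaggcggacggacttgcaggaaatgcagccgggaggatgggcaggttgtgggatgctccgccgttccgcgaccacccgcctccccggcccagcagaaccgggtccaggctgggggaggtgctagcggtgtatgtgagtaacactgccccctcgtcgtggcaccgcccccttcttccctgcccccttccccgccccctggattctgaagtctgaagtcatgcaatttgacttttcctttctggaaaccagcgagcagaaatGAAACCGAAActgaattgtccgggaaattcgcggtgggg
RSAD2, chr2:6877527-6877826, plus strand: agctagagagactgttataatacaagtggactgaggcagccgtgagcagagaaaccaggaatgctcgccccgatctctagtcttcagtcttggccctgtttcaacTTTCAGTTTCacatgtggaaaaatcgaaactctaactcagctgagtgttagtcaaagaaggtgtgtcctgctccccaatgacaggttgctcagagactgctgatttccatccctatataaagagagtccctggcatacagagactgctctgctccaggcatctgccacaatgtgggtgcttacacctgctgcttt
The core occurred in 6 of the 11 windows and in 4 of the 5 genes, CMPK2 being the exception. Across all 35116 RefSeq windows it occurred in 3.57%, a share of windows and not of genes. Both IFI44 windows overlap and hold the same copy. IFI44L carried it at positions −164 and −73 relative to the start, 91 bases apart, inside an identical stretch of 85 bases that stands once around each copy. IFI44 carried it at −18, RSAD2 at −145 and MX1 at 12 after the start. A different MX1 window, chr21:41431800-41432099, held the core at −196. There it overlapped the only match among the 11 windows to the gamma-activated sequence TTCNNNGAA, a palindrome in these letters, present in 7.66% of all windows.

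An upstream start of RSAD2 has a window that overlaps a CMPK2 window by 165 bases and holds no core. A form with 1 base between the GAAA repeats, GAAANGAAA (TTTCNTTTC on the opposite strand), was searched after that window was read, and can overlap the core. Capitals mark it here.
RSAD2, upstream start, chr2:6865635-6865934, plus strand: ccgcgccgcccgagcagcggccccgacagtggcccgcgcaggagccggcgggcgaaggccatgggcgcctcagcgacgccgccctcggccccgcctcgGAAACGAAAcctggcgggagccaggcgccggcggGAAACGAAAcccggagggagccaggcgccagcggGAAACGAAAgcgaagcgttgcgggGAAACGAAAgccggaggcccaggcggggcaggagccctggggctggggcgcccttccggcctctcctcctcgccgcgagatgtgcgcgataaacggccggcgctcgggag
This window held 4 copies, all with the same letters, and the overlapping CMPK2 window chr2:6865770-6866069 held 2 of those same copies. The form occurred in 3.12% of all windows and in 6 of the 11 windows of the 5 genes, where both IFI44 windows again hold the same copy. A match describes the letters of a window, and binding was not measured.

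Values are the authors' FPKM, fragments per kilobase of gene scaled to library size, which carry no read depth, so the counting error of a single library is unknown. Named genes at 1 FPKM or more numbered between 10992 and 11886 per library of the IFN-β experiment. In the knockdown experiment all genes at that level, named or not, numbered between 11715 and 12348 per library. All 7 squamous epithelial markers reached 1 FPKM in at least 1 library of each group, with summed levels of 313 to 5222 FPKM with IFN-β, 306 to 6372 FPKM untreated, 1000 to 6512 FPKM after knockdown and 769 to 8859 FPKM with vector. None of 7 leukocyte markers reached 1 FPKM (summed at most 0.936 FPKM), and of 4 plasmacytoid dendritic cell markers, TCF4 alone did, with CLEC4C and LILRA4 listed at 0 throughout. Of 6 fibroblast markers 1 reached 1 FPKM in each group, and of 4 endothelial markers 1 did so in the untreated group and none in the others. Markers of HEK293T, the packaging cells of the lentivirus, summed to 9.75 to 14.7 FPKM after knockdown and 11.7 to 20.3 FPKM with vector. In the IFN-β experiment, for which no lentivirus is described, they summed to 14.0 to 21.8 FPKM with IFN-β and 10.53 to 14.4 FPKM untreated. Over the 12428 genes tested with IFN-β, the median log2 ratio of deposited FPKM + 1 was 0.41 in KYSE450, −0.01 in KYSE30 and −0.02 in KYSE180. Libraries were scaled to remove this shift before the tests.

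With IFN-β, all 6 genes stood at higher FPKM than in untreated cells of the same line, except CMPK2 in KYSE30. IFI44 was the one that passed the test across lines. MX1 or MX2 was the higher of its pair depending on the line, whereas IFI44 was above IFI44L in every library. MX2, IFI44L and RSAD2 were under 1 FPKM in all untreated libraries and entered the test through treated libraries alone, so a higher treated level was a condition of their being tested. The plot of FPKM with and without IFN-β shows every library.

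**Figure D1:**
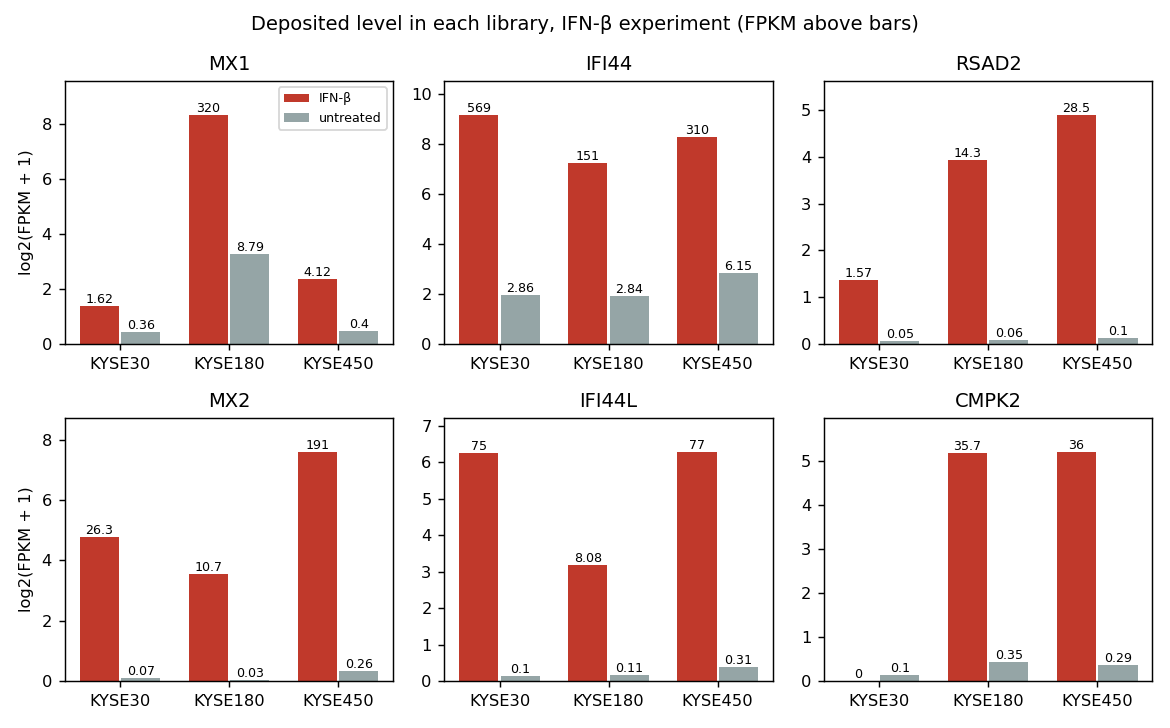
Bars give log2(FPKM + 1) of the 6 genes in the IFN-β library (left of each pair of bars) and the untreated library (right) of KYSE30, KYSE180 and KYSE450, with the deposited FPKM above each bar and 1 library per bar. IFI44 lies between 151 and 569 FPKM in all treated libraries, while MX1 is highest in treated KYSE180, the line in which treated MX2 is lowest.

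MX1, the cytoplasmic MX GTPase, stood at 1.62 FPKM in KYSE30, 320.1 in KYSE180 and 4.12 in KYSE450 with IFN-β, against 0.36, 8.79 and 0.40 FPKM in untreated KYSE30, KYSE180 and KYSE450. Untreated KYSE180 thus lay above treated KYSE30 and treated KYSE450, and the groups overlap. The ratios of treated to untreated FPKM were 4.5, 36.4 and 10.3 in the same line order. After scaling, the log2(FPKM + 1) difference averaged 2.55 ± 0.92 (SE, n = 3 lines), with limma adjusted p = 0.513.

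MX2, the nuclear pore MX GTPase, stood at 26.3 FPKM in KYSE30, 10.7 in KYSE180 and 191 in KYSE450 with IFN-β, against 0.07, 0.03 and 0.26 FPKM in untreated KYSE30, KYSE180 and KYSE450. All untreated libraries were below 1 FPKM, all treated ones were above it, and the groups do not overlap. Its log2 fold change was 5.05 ± 0.70 (SE, n = 3 lines), with line values of 4.75, 3.40 and 6.99, and limma gave adjusted p = 0.148. With a pseudocount of 0.1 in place of 1 it was 7.42 ± 0.45 and passed, with limma adjusted p = 0.00673. MX2 entered the test through treated libraries alone, so its p-values are descriptions.

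The balance of the MX pair thus differed between lines. MX1 made up 5.80% of the summed MX1 and MX2 FPKM in KYSE30, 96.8% in KYSE180 and 2.11% in KYSE450 with IFN-β, against 83.7%, 99.7% and 60.6% in untreated KYSE30, KYSE180 and KYSE450. Treated MX2 exceeded treated MX1 by 16.2 times in KYSE30 and 46.3 times in KYSE450, whereas treated MX1 exceeded treated MX2 by 29.9 times in KYSE180. In every untreated line MX1 was the higher of the pair. The response of MX1 minus that of MX2, on the log2(FPKM + 1) scale, came to −3.77, 1.64 and −5.37 in KYSE30, KYSE180 and KYSE450, with a mean of −2.50 ± 3.67 (SD, n = 3). A two-sided exact sign-flip permutation test gave p = 0.5, where 0.25 is the smallest p that 3 lines allow. With a pseudocount of 0.1 the KYSE180 value turned to −1.10, all 3 lines were negative and the mean was −4.17 (exact sign-flip p = 0.25). With each line left out in turn the mean lay between −4.57 (without KYSE180) and −1.06 (without KYSE450).

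**Figure D2:**
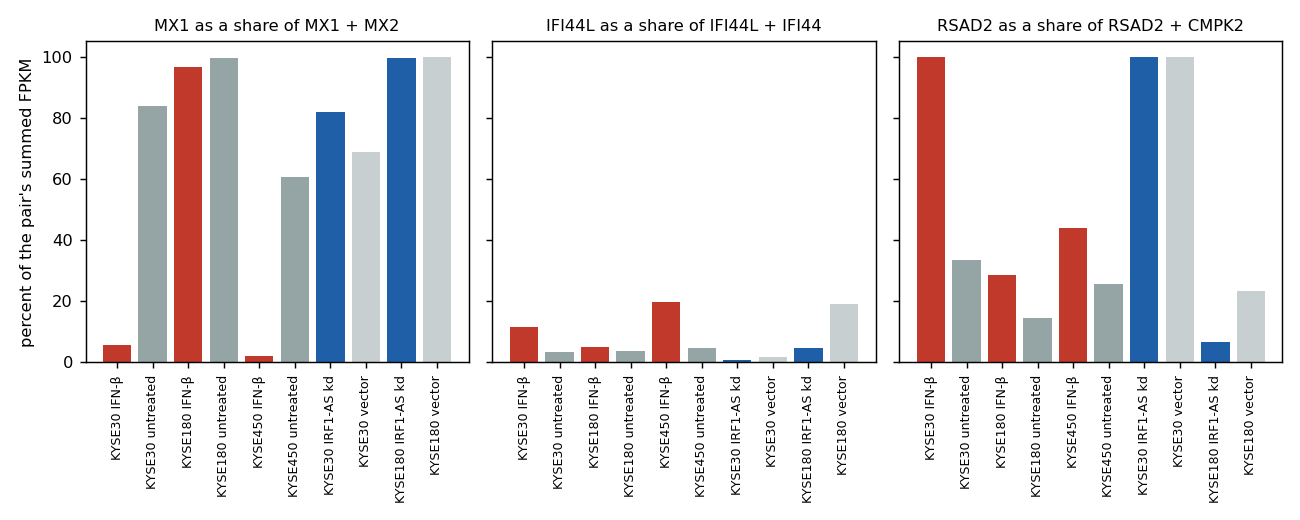
Bars give the share, in percent, of each pair's summed FPKM held by MX1, IFI44L and RSAD2 in each of the 10 libraries, with the IFN-β or IRF1-AS knockdown (kd) library left of the untreated or vector library of the same line. MX1 holds 96.8% in treated KYSE180 but 5.80% and 2.11% in treated KYSE30 and KYSE450, while IFI44L holds the smaller share of its pair in every library.

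IFI44 stood at 569 FPKM in KYSE30, 151 in KYSE180 and 309.6 in KYSE450 with IFN-β, against 2.86, 2.84 and 6.15 FPKM in untreated KYSE30, KYSE180 and KYSE450. The groups are far apart, and its 3 untreated libraries were above 1 FPKM, which held for no other member. IFI44 rose by a log2 fold change of 5.83 ± 0.48 (SE, n = 3 lines), limma adjusted p = 0.0384, with line values of 7.23, 5.29 and 4.98. Without KYSE180 the adjusted p was 0.118 and without KYSE450 it was 0.177, in the same limma fit, while the change stayed at 6.10 and 6.26.

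IFI44L stood at 75.0 FPKM in KYSE30, 8.08 in KYSE180 and 77.0 in KYSE450 with IFN-β, against 0.10, 0.11 and 0.31 FPKM in untreated KYSE30, KYSE180 and KYSE450. The groups do not overlap, and treated KYSE180 was far below the treated libraries of the other lines. Its log2 fold change was 4.92 ± 0.68 (SE, n = 3 lines), with line values of 6.18, 2.94 and 5.62 and limma adjusted p = 0.148. Without KYSE180, its lowest responder, the limma adjusted p was 0.000668 (change 5.90), against 0.542 without KYSE30 and 0.780 without KYSE450, each fit resting on the 2 lines left. IFI44L entered the test through treated libraries alone, so these p-values are descriptions.

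Within this pair IFI44L was the lower in every library. IFI44 exceeded IFI44L by 7.58 times in KYSE30, 18.7 times in KYSE180 and 4.02 times in KYSE450 with IFN-β, against 28.6, 25.8 and 19.8 times in untreated KYSE30, KYSE180 and KYSE450. On the log2(FPKM + 1) scale the response of IFI44L minus that of IFI44 was −1.04, −2.35 and 0.64 in KYSE30, KYSE180 and KYSE450, with a mean of −0.92 ± 1.50 (SD, n = 3, exact sign-flip p = 0.5). With a pseudocount of 0.1 the mean turned to 0.84, and with each line left out in turn it lay between −1.70 (without KYSE450) and −0.20 (without KYSE180). On the deposited FPKM, treated over untreated IFI44L was 750, 73.5 and 248 times in KYSE30, KYSE180 and KYSE450. For IFI44 it was 199, 53.1 and 50.3 times in the same line order, smaller in every line.

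RSAD2, which encodes viperin, stood at 1.57 FPKM in KYSE30, 14.3 in KYSE180 and 28.5 in KYSE450 with IFN-β, against 0.05, 0.06 and 0.10 FPKM in untreated KYSE30, KYSE180 and KYSE450. The groups do not overlap, and treated KYSE30 was the lowest treated library. Its log2 fold change was 3.20 ± 0.65 (SE, n = 3 lines), with line values of 1.34, 3.75 and 4.52 and limma adjusted p = 0.323. Without KYSE30, its lowest responder, the limma adjusted p was 0.000234 (change 4.14), against 0.619 without KYSE180 and 0.814 without KYSE450, each fit resting on the 2 lines left. RSAD2 entered the test through treated libraries alone, so these p-values are descriptions.

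CMPK2, the mitochondrial nucleotide kinase beside RSAD2, was listed at 0 in KYSE30 and stood at 35.7 FPKM in KYSE180 and 36.05 FPKM in KYSE450 with IFN-β, against 0.10, 0.35 and 0.29 FPKM in untreated KYSE30, KYSE180 and KYSE450. The treated libraries of KYSE180 and KYSE450 were 102 and 124 times the untreated ones, while KYSE30 was under 1 FPKM in both arms. CMPK2 reached 1 FPKM in too few libraries to enter the test, and in a fit with no such filter its log2 fold change was 3.04 ± 1.06 (SE, n = 3 lines) with limma adjusted p = 0.768. Treated CMPK2 exceeded treated RSAD2 by 2.49 times in KYSE180 and 1.27 times in KYSE450. The response of RSAD2 minus that of CMPK2 came to 1.48, −0.94 and −0.06 in KYSE30, KYSE180 and KYSE450, with a mean of 0.16 ± 1.22 (SD, n = 3, exact sign-flip p = 1), and −0.50 without KYSE30. With a pseudocount of 0.1 the values were 4.57, 0.12 and 0.69 in KYSE30, KYSE180 and KYSE450, all positive, with a mean of 1.79 (exact sign-flip p = 0.25).

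By mean FPKM with IFN-β the order was IFI44 at 343 ± 211, MX1 at 109 ± 183, MX2 at 76.0 ± 99.9, IFI44L at 53.4 ± 39.2, CMPK2 at 23.9 ± 20.7 and RSAD2 at 14.8 ± 13.5 (SD, n = 3). IFI44 and MX1 are the only neighbours in that order whose means differ by more than either SD, but the place of MX1 rests on KYSE180. There treated MX1 (320.1 FPKM) was above treated IFI44 (151 FPKM), and by the median of the 3 treated lines MX1 was last, at 4.12 FPKM. The untreated order was IFI44 at 3.95 ± 1.91 FPKM, MX1 at 3.18 ± 4.86, CMPK2 at 0.247 ± 0.131, IFI44L at 0.173 ± 0.118, MX2 at 0.12 ± 0.123 and RSAD2 at 0.07 ± 0.0265 (SD, n = 3), with no neighbours apart by more than their spread. Members at 1 FPKM or more numbered 5 in KYSE30, 6 in KYSE180 and 6 in KYSE450 with IFN-β, against 1, 2 and 1 in untreated KYSE30, KYSE180 and KYSE450.

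Across all 12428 genes tested, 50 rose with limma adjusted p under 0.05 (0.402%), and IFI44 was the 1 called among 5 members tested. On the values as deposited 193 genes (1.55%) were called higher, again with IFI44 as the 1 member. Of all 6 members, 5 were higher in every line (16.8% of genes tested), and 4 were at least 2-fold higher in every line on the scaled FPKM + 1 scale (0.676% of genes tested). MX1 was not among the 4 because its log2 ratio of scaled FPKM + 1 in KYSE30 was 0.98, although its deposited FPKM differed 4.5 times there. Every treated value lay above every untreated one for MX2, IFI44, IFI44L and RSAD2 (2.89% of genes tested). Since the filter made MX2, IFI44L and RSAD2 differ in this way, these counts are descriptions, and nothing is read from them against the shares of all genes. By size of log2 fold change among the 12428 genes, IFI44 was in place 5, MX2 12, IFI44L 13, RSAD2 31 and MX1 55.

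The spread between lines was wide for each of them. The highest minus the lowest line log2 ratio was 4.07 for MX1, 3.58 for MX2, 3.24 for IFI44L, 3.18 for RSAD2 and 2.25 for IFI44, and it was 4.83 for the untested CMPK2. The median of this range was 1.67 over 43 other antiviral effectors and 0.44 over all genes tested. Among those 43 effectors the range ran from 0.14 to 5.34, and its upper end lay above the value of every member. A wide range between lines was thus not particular to the members. MX1 was in place 20 of 12428 by this range. No single line was lowest throughout. KYSE30 had the lowest ratio for MX1, RSAD2 and CMPK2, KYSE180 for MX2 and IFI44L, and KYSE450 for IFI44. These ranges depend on the added 1 FPKM where untreated levels were low. On the deposited FPKM, treated over untreated MX2 was 376, 357 and 734 times in KYSE30, KYSE180 and KYSE450, so KYSE180 was close to KYSE30.

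**Figure D3:**
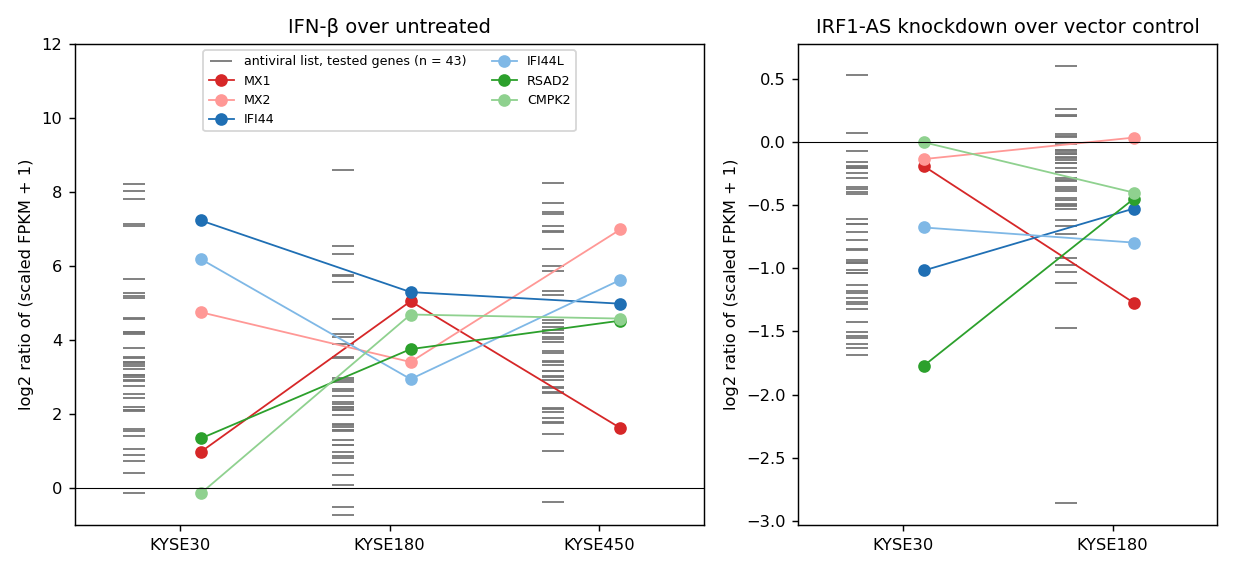
Points give the log2 ratio of scaled FPKM + 1 for the 6 genes in each line, IFN-β over untreated (left panel) and IRF1-AS knockdown over vector control (right panel), and grey dashes give the 43 tested antiviral effectors. With IFN-β the range across lines is between 2.25 and 4.83 for the 6 genes, and the lines joining them cross.

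Genes were ranked by how closely their 3 line log2 ratios matched those of each member, as the root mean square (RMS) difference in log2 units. MX1 was nearest to DHRS2 (0.77), IL8 (0.84) and HCP5 (0.91), a dehydrogenase, a chemokine and a transcript of the MHC region. MX2 was nearest to OAS1 (0.40), IFIT1 (0.79) and OAS3 (1.10), of which OAS1 and OAS3 make the 2-5A that activates RNase L and IFIT1 binds viral 5′ ends. MX1 and MX2 differed from each other by 3.90, which put MX2 in place 12297 of the genes ranked against MX1 and MX1 in place 93 of those ranked against MX2. The RMS difference counts the size of a response as well as its pattern. Genes that hardly changed can thus stand closer to MX1 than MX2 does, although MX1 and MX2 were both higher with IFN-β in every line. IFI44 was nearest to TRIM22 (1.10), ISG15 (1.31) and IFIT1 (1.48), and IFI44L to UBE2L6 (0.66), the conjugating enzyme of ISG15, then OAS3 (1.16) and IFIT1 (1.18). IFI44 and IFI44L differed from each other by 1.53, which put IFI44L in place 4 for IFI44 and IFI44 in place 12 for IFI44L. RSAD2 was nearest to IFIT2 (0.84), SCARNA9 (1.02) and HERC5 (1.03), and CMPK2 to HERC5 (1.16), HCP5 (1.26) and IFIT2 (1.63). RSAD2 and CMPK2 differed from each other by 1.01, which made RSAD2 the closest of all to CMPK2 and CMPK2 the second to RSAD2. With 3 lines these are descriptions.

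CMPK2 was 1 of 2 named genes whose log2 ratio was at least 3 in KYSE180 and KYSE450 and under 0.5 in KYSE30. The other was HERC5, the ligase for ISG15, at 0.39 FPKM with IFN-β and 0.07 FPKM untreated in KYSE30. Because the rule adds 1 FPKM, a gene that stays low in a line can fall under 0.5 although its FPKM rose. This was so for HERC5 in KYSE30. By the same rule SAMD9L alone was high in KYSE30 and KYSE450 and not in KYSE180, at 2.94 FPKM with IFN-β and 2.77 FPKM untreated, and no named gene was high in KYSE30 and KYSE180 and not in KYSE450. IRF7, a transcription factor of the interferon response, was at least 3 in KYSE450 alone, at 15.3 FPKM with IFN-β and 0.59 FPKM untreated.

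Of 43 tested members of a list of other antiviral effectors, 18 rose with IFN-β and none fell at limma adjusted p under 0.05. In every line 41 of them were higher. Over all genes tested, 0.402% were called higher and 16.8% were higher in every line. The median log2 fold change of the 43 was 2.98, against −0.01 over all genes, and the line medians came to 3.29, 2.18 and 3.65 for KYSE30, KYSE180 and KYSE450. IFI27 rose by 8.28 ± 0.14, IFI6 by 7.41 ± 0.37, OAS2 by 7.02 ± 0.19 and IFIT3 by 5.93 ± 0.35 (log2 fold change ± SE, n = 3 lines). Of 10 tested genes of ISGF3 and the steps above it, 2 rose and none fell, with a median of 0.54. IRF1, a transcription factor of the interferon response, rose by 1.30 ± 0.13 (log2 fold change ± SE, n = 3 lines, limma adjusted p = 0.0188).

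Genes that share the members' biochemistry were not called. In the dynamin superfamily list, relatives of the MX GTPases, 0 of 9 were called by limma (1 at unadjusted p under 0.05) and the median log2 fold change was −0.13. ATL3, an endoplasmic reticulum GTPase, had the smallest p there, at −0.42 ± 0.13, and MFN1 stood at −0.37, OPA1 at −0.28 and DNM1L at −0.13. In the pyrimidine nucleotide list, where CMPK2 and the substrate of viperin belong, 0 of 19 were called by limma (2 at unadjusted p under 0.05) with a median of 0.00. SAMHD1, a dNTP hydrolase and itself a known interferon-stimulated gene, stood at 2.81 ± 0.42 with line values of 3.48, 1.53 and 3.40 (limma adjusted p = 0.148), and RRM2, a subunit of ribonucleotide reductase, at 0.64 ± 0.15 (limma adjusted p = 0.275). On the values as deposited 2 genes of that list were called higher. In the list of viperin partners and iron-sulfur cluster assembly, 0 of 10 were called by limma (1 at unadjusted p under 0.05), and HADHB, a subunit of the mitochondrial trifunctional protein, stood at −0.43 ± 0.14. In the list of partners of MX and IFI44 proteins, 0 of 9 were called by limma (1 at unadjusted p under 0.05), and FKBP5 stood at 0.58 ± 0.17 (limma adjusted p = 0.438).

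Around the 3 loci, 24 neighbouring genes were listed, of which 5 entered the test and 0 were called by limma (0 at unadjusted p under 0.05, and 0 called on the values as deposited). BACE2, 79425 bases before MX2, stood at a log2 fold change of 0.38 ± 0.18 (limma adjusted p = 0.539). LPHN2, 2642082 bases beyond IFI44, stood at −0.31 ± 0.15 (limma adjusted p = 0.552). RNF144A, 19153 bases beyond RSAD2, stood at 0.48 ± 0.21 (limma adjusted p = 0.526). ID2 at 0.08 ± 0.18 and KIDINS220 at −0.19 ± 0.15 lay 1780606 and 1822842 bases beyond RSAD2. LPHN2, ID2 and KIDINS220 are thus too distant to describe the immediate surroundings of the pairs. RNF144A, a ubiquitin ligase gene, was nearly silent in KYSE30, with 0.02 FPKM in KYSE30, 6.03 in KYSE180 and 4.39 in KYSE450 with IFN-β, against 0.03, 2.60 and 1.99 FPKM in untreated KYSE30, KYSE180 and KYSE450. The closest flanking genes of the MX pair, FAM3B at 4512 bases and TMPRSS2 at 5337 bases, were at most 0.21 FPKM in all 6 libraries. NRIR is a long non-coding RNA whose annotated span ends 106 bases from CMPK2. It and the other 5 neighbours listed separately as long non-coding were at 0 in all 6 libraries. C21orf129 and NCRNA00111, long non-coding genes listed among the named ones, reached at most 0.47 and 0.13 FPKM.

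**Figure D4:**
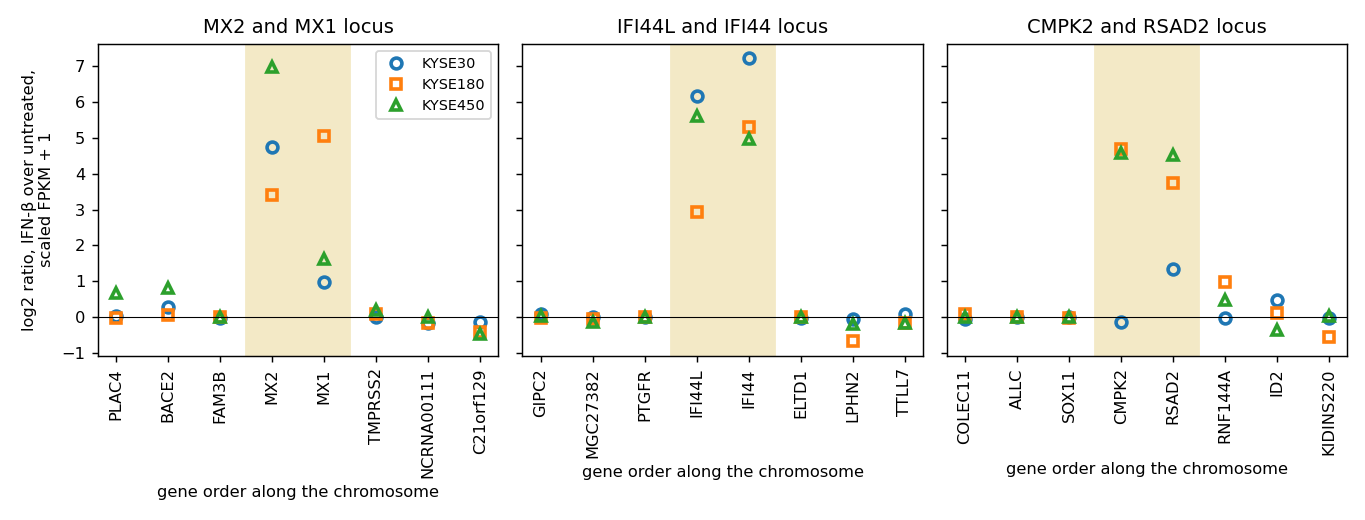
Scaled log2 ratio of FPKM + 1, IFN-β over untreated, for the named genes of the 3 loci in their order along the chromosome, with 1 symbol per line and the pair shaded. Distances are not to scale, and the neighbours lie up to 5200950 bases (TTLL7) from a pair. The 3 neighbours drawn on each side lie between −0.68 (LPHN2 in KYSE180) and 0.97 (RNF144A in KYSE180). MX2, IFI44L and IFI44 lie between 2.94 and 7.23 in every line. In KYSE30, MX1 at 0.98, RSAD2 at 1.34 and CMPK2 at −0.14 lie in or near the range of the neighbours. Adding 1 FPKM draws low genes toward 0, and most of the neighbours drawn were too low to be tested. On the deposited FPKM, treated over untreated KYSE30 was 31.4 times for RSAD2 and 4.5 times for MX1.

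After knockdown of IRF1-AS, none of the 3 members that could be tested was called, and 4 of the 6 stood lower than with vector in both lines. C5orf56 (ENSG00000197536), whose RefSeq synonyms include IRF1-AS1, was the nearest available check of the label. It was matched through that synonym, and whether its FPKM count the transcript that was targeted is not known. It stood at 3.04 FPKM in KYSE30 and 0.948 FPKM in KYSE180 after knockdown, against 6.86 and 1.08 FPKM in KYSE30 and KYSE180 with vector, which is 44.4% and 88.0% of vector (limma log2 fold change −0.55 ± 0.31, adjusted p = 0.812). The neighbouring IRF1 gene had 5.88 FPKM (KYSE30) and 1.20 FPKM (KYSE180) after knockdown, against 31.1 and 1.83 FPKM with vector (limma log2 fold change −1.32 ± 0.47, adjusted p = 0.747). The KYSE180 library labelled knockdown was thus close to its vector control in C5orf56, with 1 library per arm and values near 1 FPKM. Whether the targeted transcript was lowered in that line cannot be read from these values. In these bulk libraries fewer cells that express a gene and less RNA per cell cannot be told apart.

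**Figure D5:**
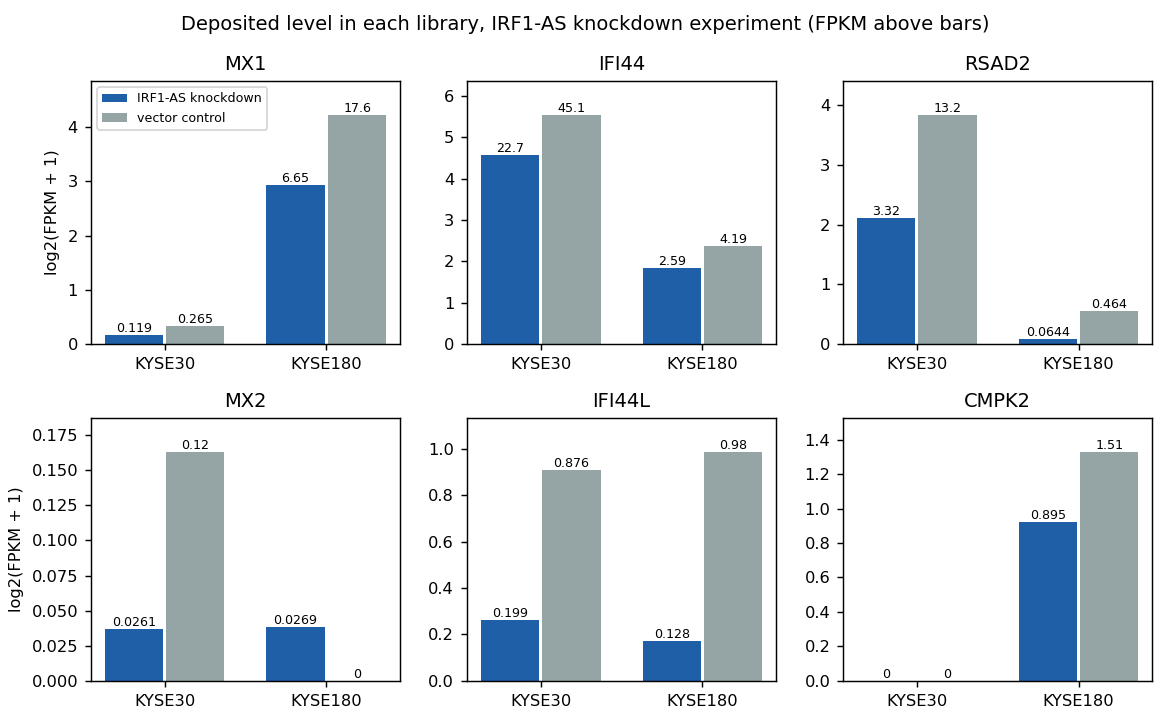
Bars give log2(FPKM + 1) of the 6 genes in the IRF1-AS knockdown library (left of each pair of bars) and the vector control library (right) of KYSE30 and KYSE180, with the deposited FPKM above each bar and 1 library per bar. MX1, IFI44, IFI44L and RSAD2 are lower after knockdown in both lines, and MX2 is at most 0.120 FPKM in every library.

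IFI44 stood at 22.7 FPKM in KYSE30 and 2.59 in KYSE180 after knockdown, against 45.1 and 4.19 FPKM in KYSE30 and KYSE180 with vector. That is 50.2% and 61.8% of vector, and the groups overlap, with both KYSE30 values above both KYSE180 values. Its log2 fold change was −0.77 ± 0.22 (SE, n = 2 lines), with limma adjusted p = 0.726.

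MX1 stood at 0.119 FPKM in KYSE30 and 6.65 in KYSE180 after knockdown, against 0.265 and 17.6 FPKM in KYSE30 and KYSE180 with vector, or 45.1% and 37.9% of vector. As with IFN-β, the level in KYSE180 was far above that in KYSE30. Its log2 fold change was −0.73 ± 0.34 (SE, n = 2 lines), with limma adjusted p = 0.798. MX2 stood at 0.0261 and 0.0269 FPKM in KYSE30 and KYSE180 after knockdown, against 0.120 FPKM in KYSE30 with vector and a listed 0 in KYSE180 with vector.

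RSAD2 stood at 3.32 FPKM in KYSE30 and 0.0644 in KYSE180 after knockdown, against 13.2 and 0.464 FPKM in KYSE30 and KYSE180 with vector, or 25.1% and 13.9% of vector. Its log2 fold change was −1.11 ± 0.38 (SE, n = 2 lines), with limma adjusted p = 0.743. IFI44L stood at 0.199 and 0.128 FPKM in KYSE30 and KYSE180 after knockdown, against 0.876 and 0.980 FPKM with vector, or 22.8% and 13.1% of vector. Its groups do not overlap, but all 4 values are under 1 FPKM and it was not tested. CMPK2 was listed at 0 in KYSE30 in both arms, and stood at 0.895 FPKM after knockdown against 1.51 FPKM with vector in KYSE180.

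In KYSE30 RSAD2 thus held 100% of the pair's summed FPKM in both arms of this experiment. In KYSE180 it held 6.72% after knockdown and 23.5% with vector. In the IFN-β experiment RSAD2 stood without CMPK2 in treated KYSE30 alone. Untreated KYSE30 had RSAD2 at 0.05 FPKM and CMPK2 at 0.10 FPKM, with RSAD2 at 33.3% of the sum. MX1 held 82.1% of the MX pair in KYSE30 and 99.6% in KYSE180 after knockdown, against 68.9% and 100% in KYSE30 and KYSE180 with vector.

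Among all 12813 genes tested after knockdown, limma called 0 (0%) and 842 had an unadjusted p under 0.05, with 2 lines and 1 residual degree of freedom. All 3 tested members, MX1, IFI44 and RSAD2, were lower in both lines, and so were 4 of all 6, against 27.8% of genes tested. The unadjusted limma p-values were 0.0809 for MX1, 0.0175 for IFI44 and 0.0305 for RSAD2. The median log2 fold change of the 3 was −0.77, against −0.01 over all genes tested.

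Of 43 tested antiviral effectors, 0 were called by limma after knockdown (18 at unadjusted p under 0.05), 33 were lower in both lines and 0 were higher in both. Of all 12813 genes tested, 3563 were lower in both lines and 3156 were higher in both. Their median log2 fold change was −0.59, with line medians of −0.94 in KYSE30 and −0.24 in KYSE180. IFIT1 stood at −1.25 ± 0.21 (SE, n = 2 lines, limma adjusted p = 0.591), OAS1 at −0.98, OAS2 at −0.98 and OAS3 at −0.85. Of 10 tested genes of ISGF3 and its upstream steps, 0 were called by limma (2 at unadjusted p under 0.05), with IRF9, the DNA-binding subunit of ISGF3, at −1.11 ± 0.35. None was called by limma among 8 dynamin superfamily genes, 21 pyrimidine nucleotide genes, 10 viperin partner and iron-sulfur genes and 9 partners of MX and IFI44 proteins, with 0, 1, 0 and 0 at unadjusted p under 0.05. Of the locus neighbours 6 were tested and 0 were called by limma (1 at unadjusted p under 0.05), and RNF144A was again at 0 in KYSE30 in both arms, with 2.97 FPKM after knockdown and 4.24 FPKM with vector in KYSE180.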

How the data were processed

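Per the file headers, the deposited values are FPKM, 1 table per library, and no counts were used. Per the submitters' processing notes, TopHat, HTSeq and hg38 were used. Their versions, the annotation, the strand setting and the depth are not stated. FPKM of named genes summed to between 988427 and 993533 in the IFN-β tables and FPKM of all genes to between 399081 and 425340 in the knockdown tables, so the experiments were normalized separately and tested separately.

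In the IFN-β tables, FPKM of long non-coding transcripts were added up within a gene (16044 genes, beside 20501 named ones). A row with no gene name was left out there. In the knockdown tables, 946 alternate-haplotype copies were added to the primary gene, and 2974 rows with no gene name were kept under their gene identifier. Libraries were scaled by the median of ratios. A gene was tested at 1 FPKM or more in 3 of 6 or 2 of 4 libraries, as log2(FPKM + 1), which understates the change of low genes. limma 3.58.1 (trend and robust, statmod 1.5.0, R 4.3.3) was fitted over all genes with the line as block, with Benjamini-Hochberg adjustment at 0.05. The fit was tested on simulated data. The libraries of a line come from the same cell line and deviated together (correlations of 0.910, 0.841 and 0.876 in KYSE30, KYSE180 and KYSE450).

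Alternatives were the pseudocount, filter, scaling, limma options, block and each line left out, and the spacing of the motif's repeats, which was added after the data were seen. Named genes were the 6 members, the 3 genes most like each, up to 4 per list (largest called change, otherwise smallest p), the tested neighbours within 3 genes on each side, and IRF1 with its antisense gene. A called gene of the ISGF3 list is not reported here. Long non-coding neighbours were those within 100 kb. The members and lists were chosen with earlier results of these data known.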

Additional observations from a re-analysis of the deposited data

Results flagged for a closer look

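Some results had opposite signs in different lines. None of these differences between lines was tested, since each rests on 1 library per arm and line. On the log2(FPKM + 1) scale CMPK2 stood at 4.69 in KYSE180 and −0.14 in KYSE30 for IFN-β against untreated. After IRF1-AS knockdown MX2 stood at 0.037 in KYSE180 and −0.13 in KYSE30, at levels of at most 0.120 FPKM.

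The difference between neighbours in response to IFN-β also changed sign on the log2(FPKM + 1) scale. MX1 minus MX2 was 1.64 in KYSE180 and −5.37 in KYSE450, and with a pseudocount of 0.1 the KYSE180 value was −1.10. IFI44L minus IFI44 was 0.64 in KYSE450 and −2.35 in KYSE180, and with a pseudocount of 0.1 the KYSE180 value was −0.46. RSAD2 minus CMPK2 was 1.48 in KYSE30 and −0.94 in KYSE180, and with a pseudocount of 0.1 the KYSE180 value was 0.12. On the deposited FPKM, with nothing added, no pair changed sign. Treated over untreated was larger for MX2 than MX1 and for IFI44L than IFI44 in every line. It was also larger for RSAD2 than CMPK2, which was listed at 0 in treated KYSE30. Groups held at most 3 libraries, too few to look for single outlying libraries.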

How the results depend on the processing

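With 3 lines and 1 library per arm, few calls are stable, and depth is unknown. limma called 50 genes with IFN-β, against 237 on the values as deposited, 13 with no filter, 13 with no replicate block, and 32 to 78 with each line left out (71 without KYSE30, 78 without KYSE180, 32 without KYSE450). As deposited, limma used the shared spread alone for 10827 of 12428 genes. The number of members called was 1, against 0 with no filter, 3 with robust fitting off, 0 rescaled without RMRP and RPPH1, and 0 to 2 with each line left out. MX1 was called under no alternative (log2 fold change 1.30 to 3.33), MX2 under 2 (4.08 to 7.42), IFI44 under 7 of 12 (5.14 to 6.26), IFI44L under 2 (4.28 to 6.99) and RSAD2 under 1 (2.54 to 5.59). IFI44 was lost with a pseudocount of 0.1 (limma adjusted p = 0.0519), no filter (0.102), rescaling without RMRP and RPPH1 (0.0675), without KYSE180 (0.118) and without KYSE450 (0.177). As deposited, 32 antiviral effectors (18 when scaled), 5 ISGF3 genes (2) and 2 pyrimidine genes (0) were called higher. IFI44L minus IFI44 was 0.84 with a pseudocount of 0.1, against −0.92. RSAD2 minus CMPK2 was −0.50 to 0.71 with each line left out. After knockdown 0 genes were called under every alternative run. Without the replicate block no member was called differently in the knockdown. The cause of these shifts was not tested.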

Other observations

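The 2 experiments share KYSE30 and KYSE180 but were normalized separately, so levels can be set side by side only by rank within a library. Among 18355 genes shared by the tables, IFI44 in KYSE30 was at percentile 82.7 after knockdown and 91.7 with vector, and at 99.1 with IFN-β and 49.3 untreated. RSAD2 in KYSE30 was at percentile 50.7 after knockdown and 73.9 with vector, and at 44.0 with IFN-β and 25.9 untreated. MX1 in KYSE180 was at percentile 60.0 after knockdown and 78.0 with vector, and at 98.6 with IFN-β and 60.0 untreated. These ranks were not tested.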
